A study of Mus musculus with 8 samples.

Results

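The 10 genes described here encode C-type lectin and Trem receptors of myeloid cells together with their adaptor: *Clec4d*, *Clec4e*, *Clec4n*, *Clec7a*, *Clec4a2*, *Clec12a*, *Clec5a*, *Trem1*, *Trem3* and *Tyrobp*. They were taken by symbol from the 55414 gene identifiers counted in each library, all 10 were found through the GENCODE M21 annotation, and all 10 passed the filter on low counts that left 16778 genes. Their RNA was measured by RNAseq in neutrophils of the spleen from 4 WT and 4 *Cxcr2-/-* mice, aged 10 weeks and kept in SOPF housing. The strains were FVB-WT and FVB-*Cxcr2-/-*, the mutation having been crossed onto FVB, so that both groups share this background and the knockout is present in every cell of the animal and not in neutrophils alone. The cells were enriched for CD11b and then sorted as CD45+ CD11b+ Ly6G+ F4/80- cells, RNA was depleted of ribosomal RNA, and read pairs were counted on genes. The labels number the libraries of each group from 1 to 4, and they are taken here as separate animals because the study's methods compare WT with KO animals. If they were not, the p-values would measure technical spread.

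C-type lectin receptors sit on the surface of phagocytes and bind sugars and lipids of fungi, bacteria and dying cells. *Clec4d* (MCL), *Clec4e* (Mincle) and *Clec4n* (Dectin-2) carry no signalling motif of their own and pass their signal through the adaptor encoded by *Fcer1g*, whereas *Clec7a* (Dectin-1), the receptor for fungal beta-glucan, has such a motif in its own tail, and all of them lead to the kinase Syk and the Card9, Bcl10 and Malt1 complex. *Clec4a2* (DCIR) and *Clec12a* (MICL) carry an inhibitory motif that recruits phosphatases such as those encoded by *Ptpn6* and *Ptpn11*. *Clec5a* (MDL-1), *Trem1*, which amplifies inflammatory responses of neutrophils, and *Trem3*, its neighbour, signal through the adaptor DAP12 encoded by *Tyrobp*.

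Several of these genes lie side by side. On chromosome 6 of GRCm38, *Clec4n* (plus strand, 123229843 to 123247021), *Clec4d* (plus strand, 123262111 to 123275265) and *Clec4e* (minus strand, 123281789 to 123289870) follow each other, with 15.1 kb between *Clec4n* and *Clec4d* and 6.52 kb between the converging ends of *Clec4d* and *Clec4e*. *Clec4a2* (plus strand, 123106428 to 123143999) belongs to the same Dectin-2 cluster. *Clec12a* (plus strand, 129342691 to 129365303) and *Clec7a* (minus strand, 129461591 to 129472779) lie 96.3 kb apart in the Dectin-1 cluster, and *Clec5a* (minus strand, 40574894 to 40585821) stands elsewhere on chromosome 6. *Trem1* (plus strand, 48232768 to 48246924) and *Trem3* (plus strand, 48247777 to 48258841) are neighbours on chromosome 17, and *Tyrobp* is on chromosome 7 (plus strand, 30413760 to 30417585).

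The sequences shown are those in front of genes of the same cluster whose RNA levels moved apart between the groups, *Clec4d* with *Clec4e* and *Clec7a* with *Clec12a*. Each is the 250 bases before the gene's start from RefSeq (GRCm38.p6), read 5′ to 3′ on the strand of the gene. In the set used, 7 of the 10 members had an entry. *Clec4n*, *Trem3* and *Tyrobp* had none, so the pairs *Trem1* with *Trem3* and *Clec4n* with *Clec4a2* are not shown. The RefSeq start of *Clec12a* lies inside the longer gene of M21, as do those of *Clec4a2* and *Clec5a*, which are not printed. Of the entries for *Clec7a*, the one that starts at the end of the M21 gene is shown. Capitals mark the letters searched on both strands, GAGGAA for PU.1, TTGCNNAA for C/EBP and TGANTCA for AP-1.
Clec4d (chr6:123261857-123262106, plus strand): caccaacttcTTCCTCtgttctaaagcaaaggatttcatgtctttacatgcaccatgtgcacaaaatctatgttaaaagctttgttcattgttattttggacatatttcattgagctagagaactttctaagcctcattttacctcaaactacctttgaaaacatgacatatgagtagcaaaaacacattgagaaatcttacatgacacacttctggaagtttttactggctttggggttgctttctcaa
Clec4e (chr6:123289872-123290121, minus strand): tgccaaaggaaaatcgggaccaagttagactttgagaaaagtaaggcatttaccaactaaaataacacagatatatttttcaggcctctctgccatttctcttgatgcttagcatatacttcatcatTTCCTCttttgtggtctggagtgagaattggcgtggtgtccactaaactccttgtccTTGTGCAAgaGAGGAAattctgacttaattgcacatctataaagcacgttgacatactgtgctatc
Clec7a (chr6:129472780-129473029, minus strand): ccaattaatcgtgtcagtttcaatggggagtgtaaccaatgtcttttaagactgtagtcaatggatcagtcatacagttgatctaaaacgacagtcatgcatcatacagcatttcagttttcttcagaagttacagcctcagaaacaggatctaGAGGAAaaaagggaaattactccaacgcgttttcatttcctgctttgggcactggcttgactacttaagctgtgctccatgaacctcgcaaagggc
Clec12a (chr6:129349994-129350243, plus strand): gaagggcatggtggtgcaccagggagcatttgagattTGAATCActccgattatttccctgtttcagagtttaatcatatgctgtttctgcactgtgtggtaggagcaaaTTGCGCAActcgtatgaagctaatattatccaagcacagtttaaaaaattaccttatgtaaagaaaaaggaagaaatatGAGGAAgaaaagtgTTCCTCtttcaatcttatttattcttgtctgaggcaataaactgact
*Clec4d* held 1 match, to PU.1, whereas *Clec4e* held 2 to PU.1 and 1 to C/EBP. *Clec7a* held 1 match to PU.1, and *Clec12a* held 2 to PU.1, 1 to C/EBP and 1 to AP-1. Of the members not printed, *Clec4a2* held no match to any of these letters, *Trem1* held 1 to PU.1 and *Clec5a* held 2 to PU.1. Of 32851 promoters of this length, 23.3% held the PU.1 letters, 9.56% those of C/EBP and 6.75% those of AP-1. No binding was measured, so the matches describe the letters of these windows alone.

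Counts on genes ranged from 34220182 to 46233555 per library. *Cxcr2*, the targeted gene, ranged from 1719 to 2252 CPM over the WT libraries and from 12.9 to 20.7 CPM over those labelled *Cxcr2-/-* (CPM, a gene's counts scaled to a common library size after TMM normalization). Of the 10 neutrophil markers, 7 were higher and 2 lower (*Csf3r* and *Cxcr4*) in *Cxcr2-/-* libraries by the edgeR test described below. By that test, 23.7% of all genes tested were higher and 21.0% lower. The markers summed to 40450 to 55770 CPM in the WT libraries and 86860 to 112100 CPM in the *Cxcr2-/-* ones. The largest parts were *S100a9*, *S100a8* and *Ltf*, with means of 13530, 12050 and 8700 CPM in WT and 33870, 28420 and 21060 CPM in *Cxcr2-/-* libraries. The 41 markers of other blood cells summed to 956 to 1158 CPM in the WT libraries and 1042 to 1198 CPM in the *Cxcr2-/-* ones, with 11 lower and 5 higher among the 33 tested and 10 under 1 CPM in every library. *Adgre1*, which encodes the F4/80 antigen used to gate cells out, was at 26.6 to 36.5 CPM in the WT libraries and 9.60 to 16.3 CPM in the *Cxcr2-/-* ones. The *Cxcr2-/-* libraries 3 and 4 stood apart from libraries 1 and 2 in the monocyte gene *Ccr2*, at 34.4 and 45.7 CPM against 7.48 and 8.85 CPM. The share of read pairs that HTSeq assigned to no gene, of all pairs it counted, ranged from 31.4% to 41.5% over the WT and from 26.7% to 31.9% over the *Cxcr2-/-* libraries (p = 0.0571 by a two-sided exact permutation test, n = 4 each).

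The receptors did not move as a block. In *Cxcr2-/-* spleen neutrophils, 4 of the 10 members were lower (*Clec7a*, *Trem1*, *Clec4d* and *Clec4n*), 4 were higher (*Clec12a*, *Clec4a2*, *Trem3* and *Clec5a*), and *Clec4e* and *Tyrobp* did not pass the test. The test was edgeR's quasi-likelihood test on all genes, passed with a Benjamini-Hochberg adjusted p under 0.05, by which 21.0% of all genes tested were lower and 23.7% higher. With a change of at least 1.5-fold asked for as well, the 4 lower members remained and *Clec12a* alone among the higher ones, against 15.7% of all genes lower and 15.7% higher. Every *Cxcr2-/-* library was below every WT library for 4 members and above for 4, which held for 19.1% and 22.5% of all genes. The median log2 fold change (*Cxcr2-/-* over WT) was -0.23 over the members and 0.01 over all genes. By role, 3 of the 4 activating lectins were lower (median log2 fold change -1.21), both inhibitory lectins were higher, and of the 3 receptors that use Tyrobp, *Trem1* was lower while *Trem3* and *Clec5a* were higher. In RNA from sorted populations, fewer cells that express a gene and less RNA in each cell cannot be told apart.

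The 4 higher calls were lost in a single alternative fit. With the share of read pairs assigned to no gene as a covariate, none of these 4 members passed the edgeR test, and the calls over all genes went from 3526 to 1486 lower and from 3969 to 1597 higher. *Clec4d*, *Clec7a* and *Trem1* passed in that fit, and *Clec4n* did not (log2 fold change -0.70, adjusted p = 0.179). The share itself was lower in most *Cxcr2-/-* libraries, so its part and that of the genotype cannot be told apart.

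**Figure D1:**
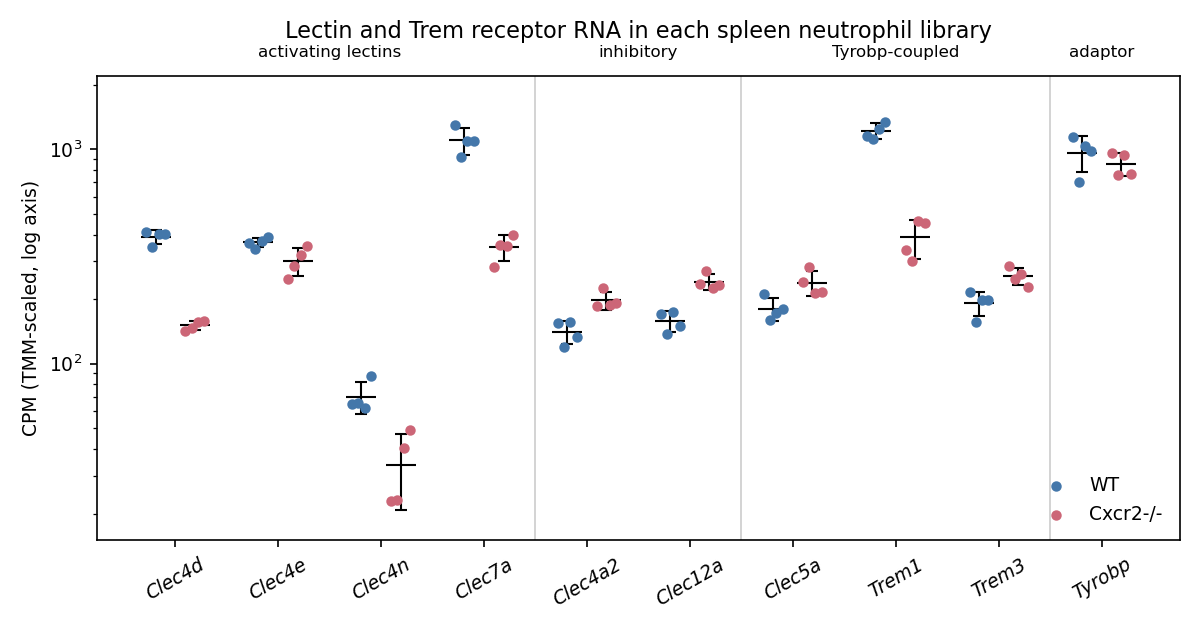
RNA of the 10 members in each library (points, n = 4 per group), as TMM-scaled CPM on a log axis, with the mean and SD as bars. The WT and *Cxcr2-/-* points are separate for 8 members and overlap for *Clec4e* and *Tyrobp*.

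*Clec4d*, whose product MCL binds mycobacterial glycolipid and helps Mincle to the cell surface, was at 412, 349, 404 and 402 CPM in WT libraries 1 to 4. In *Cxcr2-/-* libraries 1 to 4 it was at 143, 147, 156 and 158 CPM. The groups did not come near each other, and the *Cxcr2-/-* libraries lay close together. The log2 fold change was -1.38 (SE 0.09, 95% interval -1.58 to -1.17, n = 4 per group), a level 2.59-fold lower in *Cxcr2-/-* neutrophils (edgeR, adjusted p = 3.85e-07).

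*Clec4e*, the Mincle gene next to it, was at 365, 344, 375 and 388 CPM in WT libraries. The *Cxcr2-/-* libraries stood at 248, 284, 320 and 355 CPM. The groups overlapped, as *Cxcr2-/-* library 4 was above WT library 2, and libraries 3 and 4 were the closest to WT. Its log2 fold change was -0.29 (SE 0.11, 95% interval -0.53 to -0.04), which did not pass with edgeR (adjusted p = 0.0577). This call sits at the threshold, since DESeq2 gave an adjusted p of 0.0396 and edgeR without *Cxcr2-/-* libraries 3 and 4 gave a log2 fold change of -0.48 (adjusted p = 0.00723), while the change was -0.13 (adjusted p = 0.654) with the share of read pairs assigned to no gene as a covariate and -0.26 (adjusted p = 0.0775) with a covariate for RNA of other cells.

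Set against each other within a library, *Clec4d* and *Clec4e* parted. Counts of *Clec4d* to counts of *Clec4e* stood at 1.13, 1.01, 1.08 and 1.03 in WT libraries 1 to 4. The same ratio was 0.575, 0.518, 0.488 and 0.445 in *Cxcr2-/-* libraries 1 to 4. The ratio does not depend on how libraries are scaled, but counts near each other are not equal levels. The exons span 1.599 kb for *Clec4d* and 4.965 kb for *Clec4e* in M21. Per kb of exon, *Clec4d* was above *Clec4e* in both groups. The means were 245 against 74.2 CPM per kb in WT and 94.4 against 60.8 in *Cxcr2-/-* libraries. The mean log2 ratio was 1.08 lower in *Cxcr2-/-* libraries, a 2.11-fold difference (p = 0.0286 by a two-sided exact permutation test, the smallest that 4 against 4 libraries can give). This was 1 of 7 pairs compared, and its adjusted p over them was also 0.0286. For 4 of the pairs, both genes were already separate between the groups in opposite directions, so that their ratios had to separate. These are given as descriptions with no test. The ranges of *Clec4d* and *Clec4e* in each group also left their ratios no room to overlap, and so did those of *Trem1* and *Tyrobp*. The p-values of these 2 pairs thus follow from the genes' own levels and carry no further support.

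**Figure D2:**
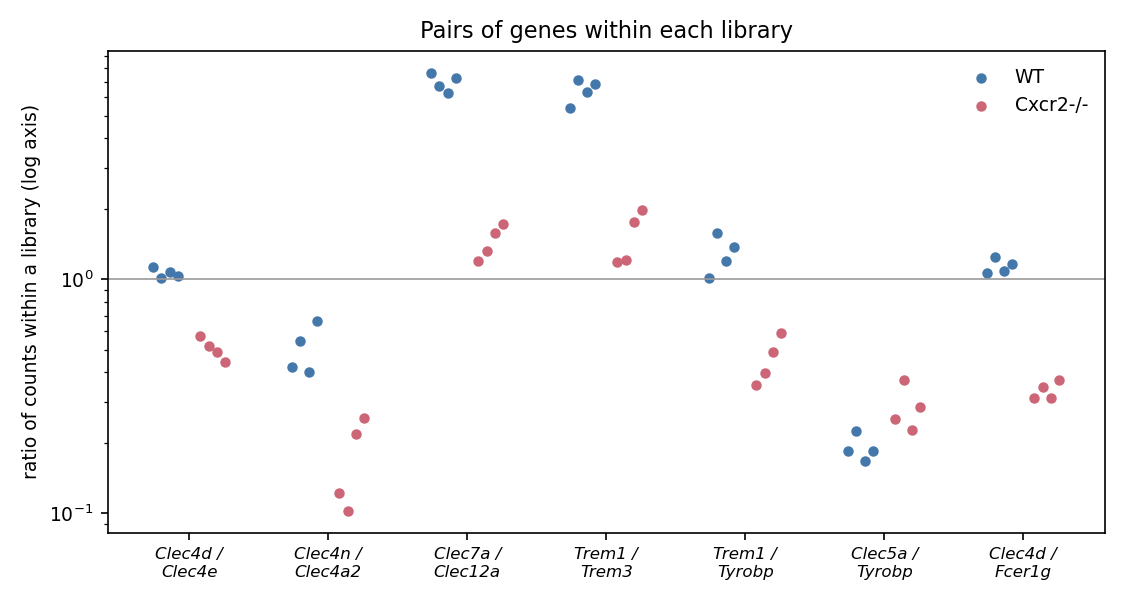
Ratio of the counts of 2 genes within each library (points, n = 4 per group) on a log axis, with a line at equal counts. Counts were not scaled by exon length, so the line does not mark equal levels. Each of the 7 pairs is separate between WT and *Cxcr2-/-* libraries, which for all but *Clec5a* to *Tyrobp* follows from the genes' own levels. *Clec4d* to *Clec4e* is at 1.01 to 1.13 in WT and 0.445 to 0.575 in *Cxcr2-/-* libraries.

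*Clec4n*, which encodes Dectin-2, the receptor for fungal mannan, was at 65.1, 65.3, 62.5 and 87.6 CPM in WT libraries. In *Cxcr2-/-* libraries it was at 22.8, 23.1, 40.6 and 49.0 CPM. The groups were separate, but *Cxcr2-/-* libraries 3 and 4 were well above libraries 1 and 2. The log2 fold change was -1.05 (SE 0.22, edgeR adjusted p = 0.00222), and without *Cxcr2-/-* libraries 3 and 4 it was -1.63. These are the libraries with the most *Ccr2*. The 12 monocyte and macrophage markers summed to 710 to 831 CPM in the WT libraries and 854 to 989 CPM in the *Cxcr2-/-* ones, with 2 lower and 3 higher. The higher sum rests on *Ly6c2*, at 194 to 270 CPM in the WT libraries and 573 to 663 CPM in the *Cxcr2-/-* ones. *Csf1r*, the other large part of the sum, was lower, at 403 to 499 and 190 to 269 CPM. With a covariate for RNA of other cells, taken over all non-neutrophil markers, the log2 fold change of *Clec4n* was -1.02 (edgeR adjusted p = 0.00107). The part of monocytes and macrophages alone in the *Clec4n* level was not tested.

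*Clec7a*, which encodes the beta-glucan receptor Dectin-1, had, together with *Trem1*, the largest log2 change among the members. It was at 1302, 918, 1090 and 1095 CPM in WT libraries. Its level in *Cxcr2-/-* libraries was 282, 358, 355 and 400 CPM. All *Cxcr2-/-* libraries lay far below the lowest WT library. With a log2 fold change of -1.66 (SE 0.14), *Clec7a* was 3.16-fold lower in *Cxcr2-/-* neutrophils (edgeR, adjusted p = 1.59e-06). M21 lists the gene as a polymorphic pseudogene, a class for genes that are intact in some strains and broken in others, and the FVB allele was not examined here.

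Among the members, the inhibitory lectins went the other way. *Clec12a*, whose product MICL senses uric acid crystals and restrains neutrophils, was at 170, 137, 175 and 150 CPM in the WT libraries and at 236, 271, 226 and 233 CPM in the *Cxcr2-/-* ones. Each *Cxcr2-/-* library was above each WT library, and the log2 fold change was 0.61 (SE 0.10, 1.53-fold, edgeR adjusted p = 4.64e-04). *Clec4a2*, which encodes the inhibitory receptor DCIR, was at 155, 120, 156 and 132 CPM in the WT libraries and at 186, 225, 187 and 191 CPM in the *Cxcr2-/-* ones. It was likewise separate between the groups, with a log2 fold change of 0.49 (SE 0.11, 1.40-fold, edgeR adjusted p = 0.00306). With the share of read pairs assigned to no gene as a covariate, the changes of *Clec12a* and *Clec4a2* were 0.54 and 0.41 on the log2 scale, with adjusted p of 0.0590 and 0.160 from edgeR. A processed pseudogene, *Gm44132*, lies within *Clec4a2* on the same strand and was at 0.258 CPM in the WT libraries and 0.379 CPM in the *Cxcr2-/-* ones on average.

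The balance of activating and inhibitory genes of the same cluster is given as counts of the first gene to counts of the second. *Clec7a* to *Clec12a* stood between 6.24 and 7.64 in WT and between 1.20 and 1.72 in *Cxcr2-/-* libraries, a difference of -2.27 on the log2 scale. *Clec4n* to *Clec4a2* stood between 0.401 and 0.661 in WT and between 0.102 and 0.257 in *Cxcr2-/-* libraries, a difference of -1.61. *Clec4d* to *Fcer1g*, the gene of its adaptor, was at 1.06 to 1.24 in WT and 0.310 to 0.372 in *Cxcr2-/-* libraries (difference -1.77 on the log2 scale).

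*Trem1*, the amplifying receptor of neutrophils and monocytes, was at 1155, 1113, 1244 and 1346 CPM in WT libraries. Libraries of *Cxcr2-/-* neutrophils held 339, 301, 461 and 451 CPM. No *Cxcr2-/-* library came near the WT range, and libraries 3 and 4 were above libraries 1 and 2. Its log2 fold change was -1.65 (SE 0.15), a level 3.13-fold lower in *Cxcr2-/-* neutrophils (edgeR, adjusted p = 2.80e-06). A processed pseudogene on the opposite strand, AC241601.2, lies within an intron of *Trem1* and was looked at after its values were seen. It was at 305 to 484 CPM in the WT libraries and 59.1 to 114 CPM in the *Cxcr2-/-* ones, a log2 fold change of -2.15 (SE 0.21, edgeR adjusted p = 6.83e-06), and its counts were 0.264 to 0.360 of those of *Trem1* in WT and 0.196 to 0.253 in *Cxcr2-/-* libraries. The strand setting of the counting is not given in the sources used here, so reads of *Trem1* introns and of the pseudogene may not be told apart.

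*Trem3*, which starts 852 bases after the end of *Trem1* and encodes a related receptor, was at 215, 157, 197 and 198 CPM in WT libraries. The 4 *Cxcr2-/-* libraries were at 285, 249, 262 and 228 CPM. The groups were separate, in the direction opposite to *Trem1*. This gave a log2 fold change of 0.42 (SE 0.11, 1.34-fold, edgeR adjusted p = 0.00910), and 0.17 (adjusted p = 0.537) with the share of read pairs assigned to no gene as a covariate. Counts of *Trem1* to counts of *Trem3* were between 5.38 and 7.10 in WT and between 1.19 and 1.98 in *Cxcr2-/-* libraries. The difference was -2.09 on the log2 scale. These counts were not scaled by exon length, which is 2.996 kb for *Trem1* and 0.994 kb for *Trem3*. Per kb of exon, *Trem1* was above *Trem3* in WT (means of 405 and 193 CPM per kb) and below it in *Cxcr2-/-* libraries (130 and 258).

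*Clec5a*, the DAP12-coupled lectin known as a sensor of dengue virus, was at 211, 159, 173 and 179 CPM in WT libraries. In *Cxcr2-/-* libraries it was at 241, 282, 215 and 216 CPM. The lowest *Cxcr2-/-* library was just above WT library 1. The log2 fold change of 0.40 (SE 0.12, 1.32-fold) passed with edgeR (adjusted p = 0.0144), but not without WT library 2 (adjusted p = 0.0636), without WT library 3 (adjusted p = 0.0581) or with the share of read pairs assigned to no gene as a covariate (0.15, adjusted p = 0.614).

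*Tyrobp*, the adaptor gene, was at 1138, 706, 1037 and 977 CPM in WT libraries. Its *Cxcr2-/-* values were 956, 761, 944 and 762 CPM. The *Cxcr2-/-* range lay within the WT range. The log2 fold change was -0.17 (SE 0.15, 95% interval -0.49 to 0.15, edgeR adjusted p = 0.372, n = 4 per group), and -0.48 (adjusted p = 0.165) with the share of read pairs assigned to no gene as a covariate. Against this adaptor, its receptors diverged. Counts of *Trem1* to counts of *Tyrobp* were between 1.02 and 1.58 in WT and between 0.354 and 0.592 in *Cxcr2-/-* libraries, and counts of *Clec5a* to counts of *Tyrobp* were between 0.167 and 0.225 in WT and between 0.227 and 0.371 in *Cxcr2-/-* libraries. The differences were -1.51 and 0.56 on the log2 scale (p = 0.0286 and adjusted p = 0.0286 for each by the same exact test, n = 4 each). For *Trem1* to *Tyrobp* this p was fixed by the levels of the genes, which left the ratios no room to overlap. The adjusted p of *Clec5a* to *Tyrobp* counts such fixed pairs among those compared.

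**Figure D3:**
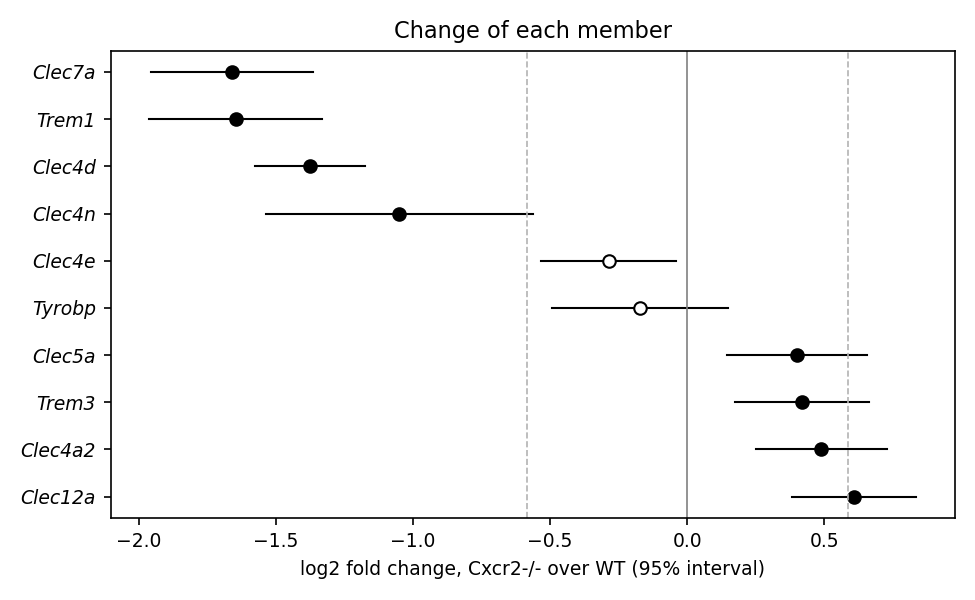
log2 fold change of each member, *Cxcr2-/-* over WT, with the 95% interval from edgeR (n = 4 per group). Filled points passed with an adjusted p under 0.05, open points did not, and dashed lines mark a 1.5-fold change, which the estimates of *Clec7a*, *Trem1*, *Clec4d*, *Clec4n* and *Clec12a* exceed.

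Levels of different genes were compared per kilobase of exon in M21, whatever isoforms the cells used. In WT neutrophils *Tyrobp* stood first with 1446 ± 277 CPM per kb (SD, n = 4), followed by *Clec7a* with 417 ± 59.5 and *Trem1* with 405 ± 34.5, which overlapped. *Clec4d* came next with 245 ± 18.1 CPM per kb, then *Trem3* with 193 ± 24.8 and *Clec4e* with 74.2 ± 3.73. *Clec4n* with 49.4 ± 8.27, *Clec4a2* with 48.1 ± 6.04 and *Clec5a* with 47.0 ± 5.71 CPM per kb overlapped with each other, and *Clec12a* was last with 28.6 ± 3.17. The inhibitory genes thus stood among the lower places in WT, and the order differed in *Cxcr2-/-* neutrophils. There *Tyrobp* was again first (1283 ± 163 CPM per kb), and *Trem3* moved from the fifth to the second place (258 ± 23.6). *Clec7a* (132 ± 18.6) and *Trem1* (130 ± 26.7), overlapping each other, came next, and *Clec4d* followed with 94.4 ± 4.57 CPM per kb. *Clec4a2* (67.4 ± 6.37), *Clec5a* (62.1 ± 8.22) and *Clec4e* (60.8 ± 9.27) overlapped, ahead of *Clec12a* (43.7 ± 3.66) and of *Clec4n* (23.8 ± 9.22), which was last.

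Summed over the 9 receptor genes, RNA reached 3816 ± 312 CPM (SD, n = 4) in WT against 2156 ± 130 CPM (SD, n = 4) in *Cxcr2-/-* neutrophils, between 3361 and 4050 CPM in WT and between 1982 and 2282 CPM in *Cxcr2-/-* libraries. *Clec7a* and *Trem1*, the largest parts of the sum in WT, made up most of the difference. The share of *Clec7a* counts in the sum was 27.3% to 32.2% in WT and 14.2% to 17.5% in *Cxcr2-/-* libraries, and that of *Trem1* was 28.5% to 33.8% and 14.1% to 20.7%. The share of *Clec4d* was 10.1% to 10.4% in WT and 6.87% to 7.20% in *Cxcr2-/-* libraries, whereas *Clec4e* took 9.02% to 10.2% and 12.5% to 15.6%. The inhibitory *Clec4a2* and *Clec12a* took 3.33% to 4.02% and 3.78% to 4.51% in WT, against 8.37% to 10.5% and 10.2% to 12.7% in *Cxcr2-/-* libraries. These shares are bound to each other, as what the largest genes lose the others gain.

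**Figure D4:**
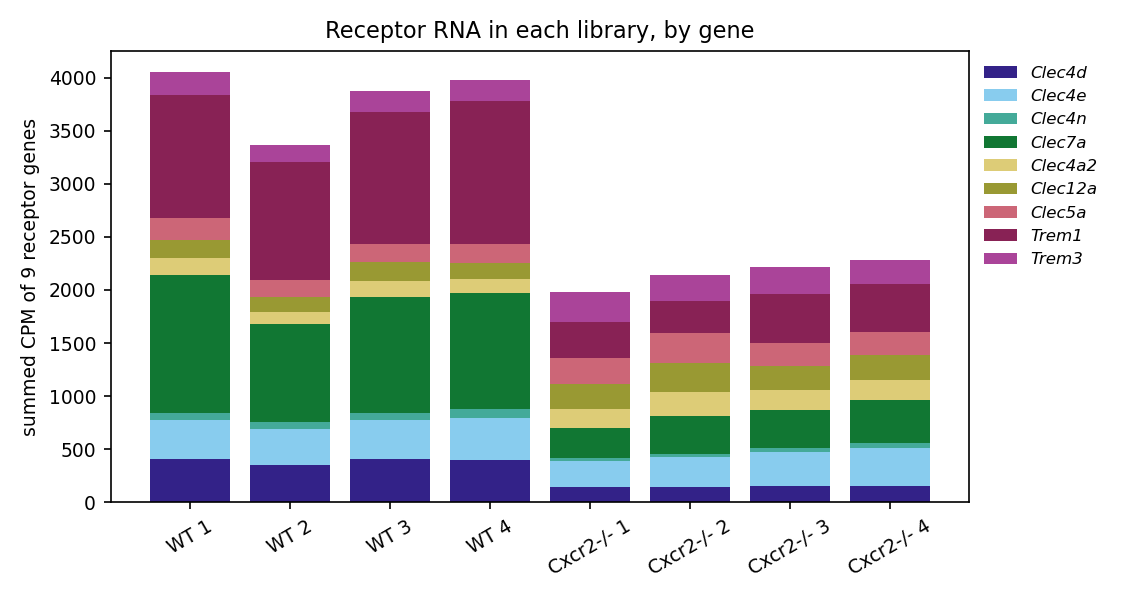
Summed CPM of the 9 receptor genes in each library, stacked by gene (1 bar per library, axis from 0). The WT bars reach 3361 to 4050 CPM and the *Cxcr2-/-* bars 1982 to 2282 CPM, with narrower bands of *Clec7a* and *Trem1* in the latter.

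Neighbours within a cluster did not all change in the same direction. In the Dectin-2 cluster *Clec4b2*, between *Clec4a2* and *Clec4n*, was lower by 1.11 on the log2 scale, beside *Clec4a2*, which was higher. The level of *Clec4b2* was low, at most 3.34 CPM in any library. In the Dectin-1 cluster *Clec1a*, between *Clec12a* and *Clec7a*, was lower (log2 fold change -1.63) as *Clec7a* was, whereas *Olr1*, the oxidised LDL receptor on the other side of *Clec7a*, was higher (0.73). In the Trem cluster *Treml2* was higher (2.01-fold, SE 0.12 on the log2 scale) as *Trem3* was.

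**Figure D5:**
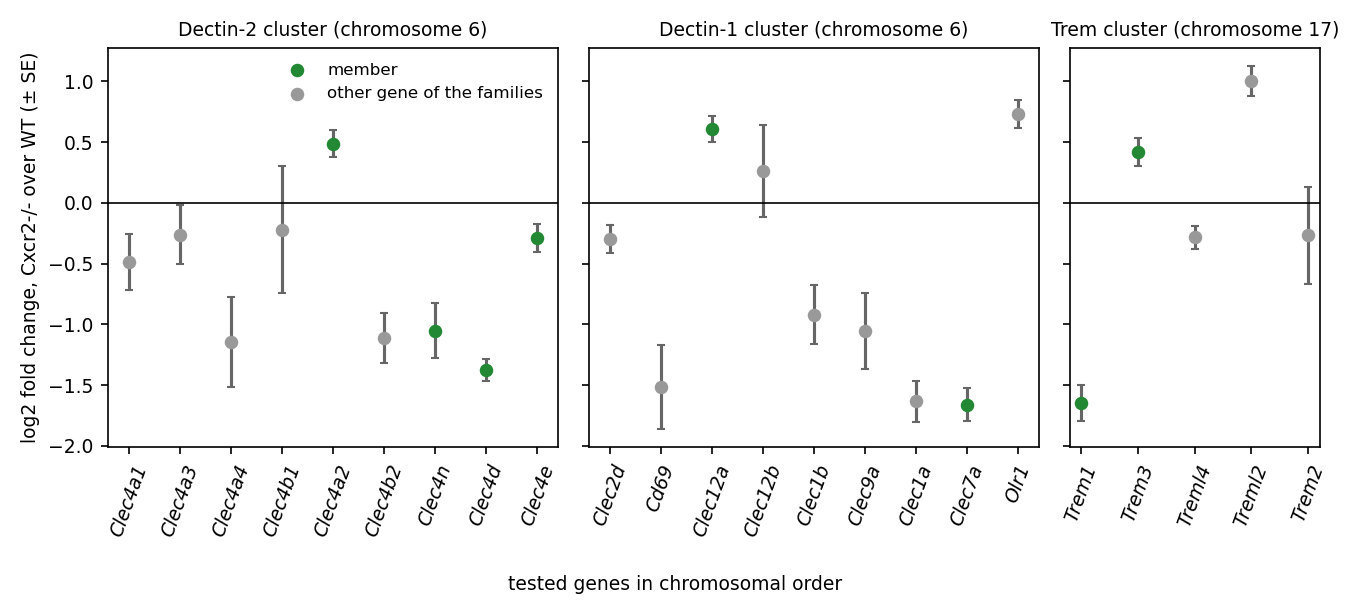
log2 fold change (*Cxcr2-/-* over WT, bars are SE, n = 4 per group) of the tested lectin and Trem genes in the order in which they lie in the Dectin-2, Dectin-1 and Trem clusters. Members are green and other genes grey, and lower genes such as *Clec4d*, *Clec7a* and *Trem1* lie next to genes that were higher or did not pass.

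The wider families give the setting. Of 35 other C-type lectin and Trem genes, 27 could be tested, of which 9 were lower, 5 higher and 13 did not pass, with a median log2 fold change of -0.49. The shares over all genes tested were 21.0% lower and 23.7% higher. Lower genes numbered 1 and higher genes 3 with the share of read pairs assigned to no gene as a covariate, and 15 genes were lower without *Cxcr2-/-* libraries 3 and 4. The largest decreases with separate groups were those of *Clec1a*, a receptor for fungal melanin (SE 0.17, edgeR adjusted p = 8.08e-06), *Cd69*, an early activation antigen (-1.51, SE 0.35, adjusted p = 0.00344), *Cd72*, an inhibitory receptor of B cells (-1.50, SE 0.45, adjusted p = 0.0156), *Clec4b2* (SE 0.21, adjusted p = 9.17e-04) and *Clec9a*, a receptor of dendritic cells for dead cells (-1.05, SE 0.32, adjusted p = 0.0162). *Cd72*, *Clec4b2* and *Clec9a* were at most at 1.60, 3.34 and 4.16 CPM. Of 5 B cell markers 4 were lower (summed 59.3 to 132 CPM in the WT libraries and 26.5 to 58.2 CPM in the *Cxcr2-/-* ones) and 2 of 5 tested dendritic cell markers were lower (8.04 to 34.7 and 5.06 to 10.0 CPM, overlapping). As lists, neither passed the exact permutation test of mean levels (two-sided, adjusted p = 0.228 for each over 8 marker lists). The neutrophil list, at the smallest p that this test can give (0.0286), had the same adjusted p. Over 8 lists the test could thus hardly reach the threshold, and nothing is concluded from it. The part of B cells and dendritic cells in these changes was not tested.

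Among the higher genes of the families were 2 endocytic or scavenging receptors and a Trem-like gene. *Ly75*, the endocytic receptor DEC-205, was at 144 to 161 CPM in the WT libraries and 319 to 430 CPM in the *Cxcr2-/-* ones (log2 fold change 1.28, SE 0.12, edgeR adjusted p = 3.60e-06). *Treml2* was at 122 to 138 CPM in the WT libraries and 211 to 313 CPM in the *Cxcr2-/-* ones (adjusted p = 3.94e-05 from edgeR), and *Olr1* was at 23.9 to 29.99 and 38.4 to 51.1 CPM (SE 0.12 on the log2 scale, adjusted p = 2.67e-04).

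The next list holds the genes that carry the signal inside the cell. Of its 40 genes, all tested, 12 were lower, 5 higher and 23 did not pass, with a median log2 fold change of -0.04. Over all genes tested, 21.0% were lower and 23.7% higher. *Fcer1g*, the adaptor of *Clec4d* and its relatives, was at 281 to 388 CPM in the WT libraries and 424 to 503 CPM in the *Cxcr2-/-* ones (log2 fold change 0.38, SE 0.12, edgeR adjusted p = 0.0166, up to 0.0664 with 1 library left out). *Syk*, the kinase on which these receptors converge, was at 1235 to 1347 CPM in the WT libraries and 983 to 1150 CPM in the *Cxcr2-/-* ones (-0.32, SE 0.10, adjusted p = 0.0185, up to 0.0648 with 1 library left out). *Malt1*, the protease of the Card9 complex, was lower (-0.43, SE 0.09, adjusted p = 0.00134), while *Card9* (0.03, adjusted p = 0.863) and *Bcl10* (-0.12, adjusted p = 0.295) did not pass. *Hcst*, the adaptor DAP10 whose gene lies 126 bases from *Tyrobp*, did not pass either (0.09, adjusted p = 0.610), and neither did *Plcg2* (0.24, adjusted p = 0.121) or *Prkcd* (-0.06, adjusted p = 0.695), which encode a phospholipase and a kinase downstream of Syk.

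Among the phosphatase genes of this list, *Inpp5d* (SHIP1) was lower by 0.41 on the log2 scale (SE 0.09, edgeR adjusted p = 0.00295), *Ptpn6* (SHP-1) did not pass (-0.18, adjusted p = 0.245), and *Ptpn11* (SHP-2) was higher (0.66, SE 0.12, adjusted p = 7.00e-04). The largest decreases were those of the immediate early transcription factors *Egr1*, at 623 to 931 CPM in the WT libraries and 21.8 to 130 CPM in the *Cxcr2-/-* ones (-3.54, SE 0.45, adjusted p = 4.86e-05), *Egr3* (-2.35, SE 0.44) and *Egr2* (-2.15, SE 0.27). *Rel*, an NF-kB subunit (-0.75), and *Tec*, a tyrosine kinase (-0.73), were lower, and *Map3k7*, the kinase TAK1 (0.61), was higher. With the share of read pairs assigned to no gene as a covariate, 5 genes of the list were lower and 1 higher.

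Over the 8 libraries, the genes whose log2 (CPM + 1) was most like that of *Clec4d* among 4225 genes ranked were *Jaml* (Pearson's r 0.997), *Rufy4* (r 0.997) and *Ppt1* (r 0.996). *Jaml*, an adhesion molecule of leukocytes, was at 292 to 386 CPM in the WT libraries and 80.4 to 90.9 CPM in the *Cxcr2-/-* ones. Among the members, r with *Clec4d* was 0.991 for *Clec7a*, 0.982 for *Trem1*, 0.862 for *Clec4n* and 0.773 for *Clec4e*. These are descriptions over the same 8 libraries, in which the difference between the groups sets most of the likeness.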

How the data were processed

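RNA of sorted spleen neutrophils was sequenced from 4 WT and 4 *Cxcr2-/-* mice. The authors depleted ribosomal RNA, made directional libraries, removed low-quality bases, used STAR for alignment to mm10 and HTSeq for counting, and deposited the raw whole-number counts of each gene. FastQC, HTSeq and mm10 are also named in the submitters' processing notes. The strand setting and the annotation of the counting are not given in the sources used here. Symbols, positions and exon lengths came from GENCODE M21 (GRCm38), which has an entry for 52081 of the 55414 identifiers, 52044 of them in an older version than the files list, so gene limits may differ from those counted. The counting program's own totals were left out of library sizes.

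All genes were tested in R 4.3.3 with edgeR 4.0.16 (quasi-likelihood test on the counts, TMM, filterByExpr, Benjamini-Hochberg adjustment). The biological coefficient of variation was 0.202. CPM are TMM-scaled, and ratios are of raw counts within a library. Exact permutation tests are given for *Clec4d* to *Clec4e*, *Trem1* to *Tyrobp* and *Clec5a* to *Tyrobp*. Only for the last of these did the levels of the genes not already fix the outcome. The edgeR and DESeq2 1.42.0 steps were tested on simulated data. No replicates of a group agreed within sampling noise (23.9 to 99.0 chi-square units per gene). Markers of T and NK cells (1 of 5 tested lower, none higher), erythroid cells and platelets (1 of 3 lower, none higher) and eosinophils and basophils (1 of 3 lower, 2 higher) complete the marker lists.

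The members, the gene lists and the tests were chosen with earlier results of these data known. Named genes are the members, 10 adaptors and signalling genes, and in each list up to 5 genes in each direction with the largest change among those that passed, changed at least 1.5-fold and did not overlap between the groups. A gene that falls under this rule is not reported here. The alternatives were DESeq2, other normalizations and filters, the replicate number as a block, covariates for RNA of other cells and for read pairs assigned to no gene, and each library left out. Leaving out *Cxcr2-/-* libraries 3 and 4 together was chosen after seeing the data.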

Additional observations from a re-analysis of the deposited data

Results flagged for a closer look

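In 3 of the 86 groups of 4 libraries examined, 1 library lay far from the other 3 of its group, where chance gives about 4.3. *Clec4d* was at 348.6 CPM in WT replicate 2, below the other WT libraries. *Clec4n* was at 87.64 CPM in WT replicate 4, above the other WT libraries. *Clec4a2* was at 225.1 CPM in *Cxcr2-/-* replicate 2, above the other *Cxcr2-/-* libraries. None of these values brought the groups into overlap.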

How the results depend on the processing

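No direction of a member turned under any alternative run. With the share of read pairs assigned to no gene as a covariate, 0 members were higher, *Clec4n* was at -0.70, *Clec4a2* at 0.41, *Clec5a* at 0.15, *Clec12a* at 0.54 and *Trem3* at 0.17 on the log2 scale, none past the threshold. *Clec4e* and *Tyrobp*, at -0.13 and -0.48, did not pass there either. In that fit 1 of the other lectin and Trem genes was lower and 3 were higher, 5 signalling genes were lower and 1 was higher, and 1486 of all genes were lower and 1597 higher. The other lectin and Trem genes lower were 15 with no low-count filter and 15 without *Cxcr2-/-* libraries 3 and 4, and 3 signalling genes were higher with upper-quartile normalization, which moved the median of all genes to -0.11 and *Clec5a* to 0.28 (no longer past the threshold). *Clec4e* passed, as lower, with DESeq2 (-0.31), RLE (-0.31), upper-quartile normalization (-0.40), total counts alone (-0.37), at least 10 counts in every library (-0.32) and without *Cxcr2-/-* libraries 3 and 4 (-0.48). The cause was not tested. Whether the replicate numbers pair the samples is not known, as the labels only number the libraries. Deviations from the group mean correlated from -0.33 to 0.32 between same-numbered libraries, and 2 of 4 pairs were over 0.1. So few pairs cannot decide it. With the replicate number as a block, *Clec4e* passed at -0.30 (adjusted p = 0.0404, edgeR), 5 members were lower and 4 higher, and 3349 of all genes were lower and 3719 higher. With each library left out in turn, *Clec4e* ranged from -0.39 to -0.20 (passing without *Cxcr2-/-* library 4, adjusted p = 0.0193) and *Clec5a* from 0.32 to 0.49, with 4 to 5 members lower and 3 to 4 higher. The log2 ratio of *Clec4d* to *Clec4e* differed between the groups by -1.14 to -1.01 in those fits. Depth did not limit the members, while 8 of the 35 other lectin and Trem genes were too low to test.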
